A study of Mus musculus with 11 samples.

Results

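The genes described here are 9 transcription factors that direct the myeloid lineages of the bone marrow: the ETS factor Spi1 (encoding PU.1), the interferon regulatory factors Irf8, Irf4 and Irf5, the repressor Gfi1, the RUNX factors Runx1, Runx2 and Runx3, and the basic leucine zipper factor Maf. They were taken by mouse symbol from a table of 51912 genes, and all 9 passed the filter on low counts that left 15703 genes for testing. RNA-seq counts came from 11 samples of C57BL/6 bone marrow in 3 groups, set up to ask whether the order in which 2 leukaemia oncogenes are switched on matters. Donor marrow from mice aged 6 to 12 weeks, carrying tamoxifen-inducible Rosa26 ERT2-Cre, received a retroviral MIG vector that is always expressed and an idsRed vector that is expressed only after Cre recombination. CSF3R-only cells (n = 4) carried human CSF3R T618I, a receptor for granulocyte colony-stimulating factor that signals without its ligand, in MIG and an empty idsRed vector. CSF3R-first cells (n = 3) carried CSF3R T618I in MIG and CEBPA V314VW, a mutant of the granulocyte factor C/EBPα, in idsRed. CEBPA-first cells (n = 4) carried the same 2 oncogenes the other way round. Cells of all 3 groups were sorted as lineage-negative with both vectors' fluorescent markers and kept for 48 h in 500 nM 4-hydroxytamoxifen, so the controls also received the drug and expressed the mutant receptor. The oncogenes were driven by retroviral vectors and not by their own promoters, no group carried CEBPA V314VW alone or empty vectors alone, and the labels do not say which samples came from separate animals or cultures. The p-values therefore measure the spread between these samples, which may be technical.

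PU.1 is needed to make macrophages, neutrophils and B cells, and it opens the enhancers of many myeloid genes. IRF8 pairs with PU.1 on shared sites and directs progenitors to monocytes and dendritic cells, whereas GFI1 is a zinc finger repressor that favours neutrophils and holds back monocyte genes. RUNX proteins bind DNA with the shared subunit CBFβ, RUNX1 being required for the first blood stem cells, and MAF marks and maintains macrophages.

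Short stretches of the start regions are shown first because the RUNX genes share one that is itself made of RUNX-type letters. RefSeq windows of GRCm38.p6, reaching from 250 bases before a gene's start to 50 after it, were given for 7 of the 9 genes (11 windows). The first windows of Runx1, Runx2 and Runx3 share a run of 18 bases, in capitals below, with ACCACA in it 2 times:
Runx1, chr16:92826025-92826054, minus strand: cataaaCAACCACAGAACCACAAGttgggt
Runx2, chr17:44814583-44814612, minus strand: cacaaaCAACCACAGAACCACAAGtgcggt
Runx3, chr4:135120503-135120532, plus strand: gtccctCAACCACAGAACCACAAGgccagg
The run began 26 bases after the RefSeq start of Runx1, 21 bases after that of Runx2 and 136 bases before that of Runx3. It was found in 4 of 32851 windows (0.012%), the other being that of Gm16225, while ACCACA or its reverse complement TGTGGT stood in 16.8% of windows.

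Matches to letters of the factors downstream of the 2 oncogenes were found in 3 other places. TTCNNNGAA, the letters bound by STAT factors, which the receptor activates, stood 2 times before the start of Irf8, and TTGCNNAA (or TTNNGCAA on the other strand), letters of C/EBP type, stood once each in the first windows of Gfi1 and Runx2. The matches are in capitals:
Irf8, chr8:120736186-120736215, plus strand: tTTCTCGGAAagagagcgcTTCAGAGAAgg
Gfi1, chr5:107725930-107725959, minus strand: cgaaggtaggtTTGCTGAActgctgtgcct
Runx2, chr17:44814657-44814686, minus strand: agtaatagtgcTTGCAAAAaataggagttt
They began 171, 143 and 48 bases before the RefSeq starts of Irf8, Gfi1 and Runx2. In GENCODE, Gfi1 and Runx2 begin farther upstream, so their matches lie inside the annotated genes and not before them. The STAT letters were in 8.3% of all windows and the C/EBP letters in 10.8%, so these matches describe the sequence and show no binding. None of the 11 windows held GAGGAAGT or ACTTCCTC (PU.1, 3.2% of all windows), GAAANNGAA or TTCNNTTTC (IRF, 8.56%) or AATCACNGC or GCNGTGATT (GFI1, 0.919%).

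Total counts ranged from 47905747 to 72268346 per sample, and the lowest count of any of the 9 genes in a sample was 87 (Irf4). Levels are CPM, counts scaled to the library's size after TMM normalization, and where 3 group values follow each other their order is CSF3R-only, CSF3R-first, CEBPA-first. Markers of granulocyte-monocyte progenitors such as Elane, Mpo and Kit summed to 2956 to 3622, 4864 to 5634 and 6346 to 6809 CPM over the samples of the 3 groups. In CEBPA-first against CSF3R-only, where 35.4% of all tested genes rose and 36.6% fell, 6 of 7 rose and 1 fell, the stem and progenitor marker Cd34 (88.8, 44.1 and 17.9 CPM). Those of maturing neutrophils summed to 16463 to 19772, 9177 to 16066 and 5104 to 6802 CPM (8 of 8 genes fell in CEBPA-first against CSF3R-only), and those of monocytes and macrophages to 2830 to 3605, 1575 to 2709 and 889 to 1240 CPM (7 of 8 fell, 1 rose). Megakaryocyte markers summed to 877 to 1189, 339 to 524 and 112 to 155 CPM (6 of 6 fell), erythroid markers to 163 to 251, 73.1 to 237 and 24.3 to 36.7 CPM (5 of 6 fell), and mast cell and basophil markers to 1967 to 2883, 1227 to 1457 and 1237 to 1608 CPM (5 of 8 fell, 1 rose). T cell markers summed to at most 5.20 CPM in a sample, B cell markers to 7.53, stromal markers to 5.34 and those of NK cells to 135 CPM, with Cd3e, Cd8a, Ncr1, Ibsp and Cxcl12 at 0 in all samples and Ms4a1, Pax5 and Ebf1 under 0.1 CPM. Tested members of these lists went both ways in CEBPA-first against CSF3R-only. Of the T cell markers Lck rose (1.75, 2.23 and 4.32 CPM), and Cd3d and Cd5, under 0.5 CPM, fell. Of the B cell markers Cd79b (3.42, 3.40 and 6.06 CPM) and Igll1 (under 1 CPM) rose, and Cd79a (under 1 CPM) fell. Of those of NK cells Nkg7, most of the sum, fell (109, 57.6 and 48.8 CPM), and Klrb1c and Il2rb, under 1 CPM, rose. Of those of stroma Col1a2 rose (0.167, 0.148 and 3.43 CPM), Col1a1 fell and Lepr did not pass. Dendritic cell markers summed to 14.1 to 16.9, 13.3 to 14.1 and 8.51 to 10.0 CPM, of which Zbtb46, Itgax and Ccr9 fell, Flt3 rose and Xcr1 did not pass. CSF3R-first A stood apart from its group, the chi-square of its counts divided by the degrees of freedom being 99.1 against sample B and 74.5 against sample C, and 22.2 between those samples. Each of these lists had members that moved between CEBPA-first and CSF3R-only, and not all of them did in CSF3R-first against CSF3R-only, where the erythroid sums overlapped. Their part in the results below was not tested, and in bulk RNA fewer cells of a type and less RNA per cell cannot be told apart.

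On a scale corrected for exon length, Spi1 had the highest level of the 9 genes in every group, at 246, 187 and 127 CPM per kb. The length was that of all annotated exons of a gene, merged. It exceeded the longest transcript by more for Runx1 (12025 against 5861 bases) and Irf8 (7055 against 3469) than for Gfi1 (3187 against 2860). The ranks given here were not computed with the longest transcript and may change with it. Irf5 was next, at 41.1, 23.3 and 15.5. In CSF3R-only, Runx3 (9.86 ± 0.641, SD), Runx1 (9.71 ± 0.562) and Irf8 (9.66 ± 0.938) did not differ beyond their spread, and Gfi1 (7.43 ± 0.213), Maf (5.73 ± 0.289), Runx2 (1.96 ± 0.170) and Irf4 (0.584 ± 0.0787) followed. In CEBPA-first the order changed below the leading pair. Gfi1 moved from rank 6 to rank 3 (14.0 ± 0.386), ahead of Runx3 (11.7 ± 1.10), Runx1 (11.4 ± 0.922) and Irf8 (9.91 ± 0.669), neighbours whose spreads overlapped, and lay within the spread of Irf5 (15.5 ± 1.96). Maf (0.840 ± 0.370) moved from rank 7 to rank 8, below Runx2 (1.47 ± 0.0454), and did not differ beyond its spread from Irf4 (0.724 ± 0.0853). In CSF3R-first, Runx3 (11.1 ± 0.818), Gfi1 (9.93 ± 0.931), Irf8 (9.14 ± 1.01) and Runx1 (8.98 ± 1.10) formed a run of neighbours with overlapping spreads, below Irf5 (23.3 ± 6.16).

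**Figure D1:**
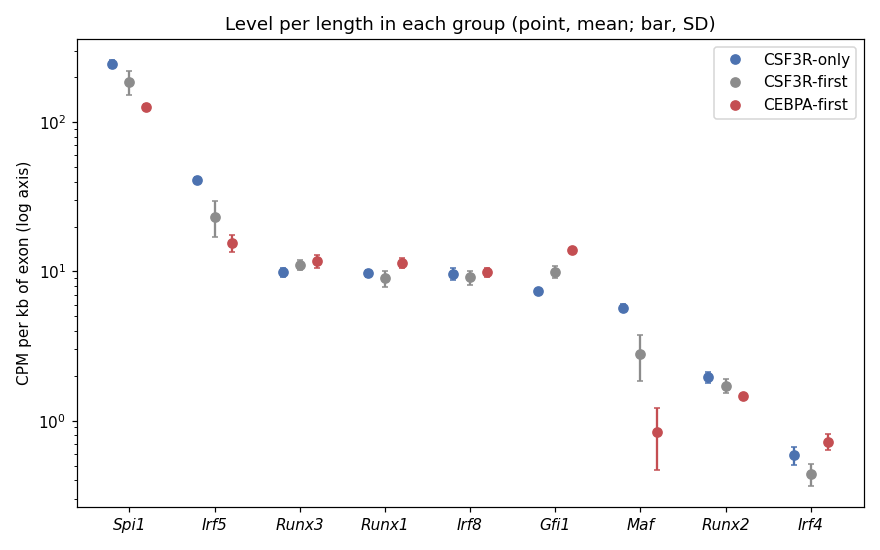
Mean level of each gene in CPM per kb of exon (log axis) in CSF3R-only (blue), CSF3R-first (grey) and CEBPA-first (red), with bars of 1 SD over samples. By merged exon length, Spi1 is highest in all 3 groups, Gfi1 goes from rank 6 in CSF3R-only to rank 3 in CEBPA-first, and Maf from rank 7 to rank 8. Ranks by the longest transcript were not computed and may differ.

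The main comparison, CEBPA-first against CSF3R-only, separated the genes into those that fell (Spi1, Irf5, Runx2 and Maf), those that rose (Gfi1, Runx1 and Runx3) and those that did not pass the test (Irf8 and Irf4). Passing meant an adjusted p under 0.05 in edgeR's quasi-likelihood test. Such calls were common, at 35.4% of all tested genes higher and 36.6% lower, so 3 of 9 and 4 of 9 were close to the background. With a change of at least 2-fold required as well, 2 of 9 were lower (Irf5 and Maf; 19.0% of all genes) and 0 higher (8.07%). In CSF3R-first against CSF3R-only, 1 gene rose (Gfi1; 21.6% of all genes) and 3 fell (Spi1, Irf5 and Maf; 21.1%), of which Maf passed 2-fold (4.53% lower, 2.13% higher). In CEBPA-first against CSF3R-first, 3 genes were higher (Gfi1, Irf4 and Runx1; 24.0%) and 3 lower (Spi1, Irf5 and Maf; 24.3%), with Maf again past 2-fold (10.3% lower, 2.57% higher). These comparisons share samples pairwise, so they do not support each other.

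**Figure D2:**
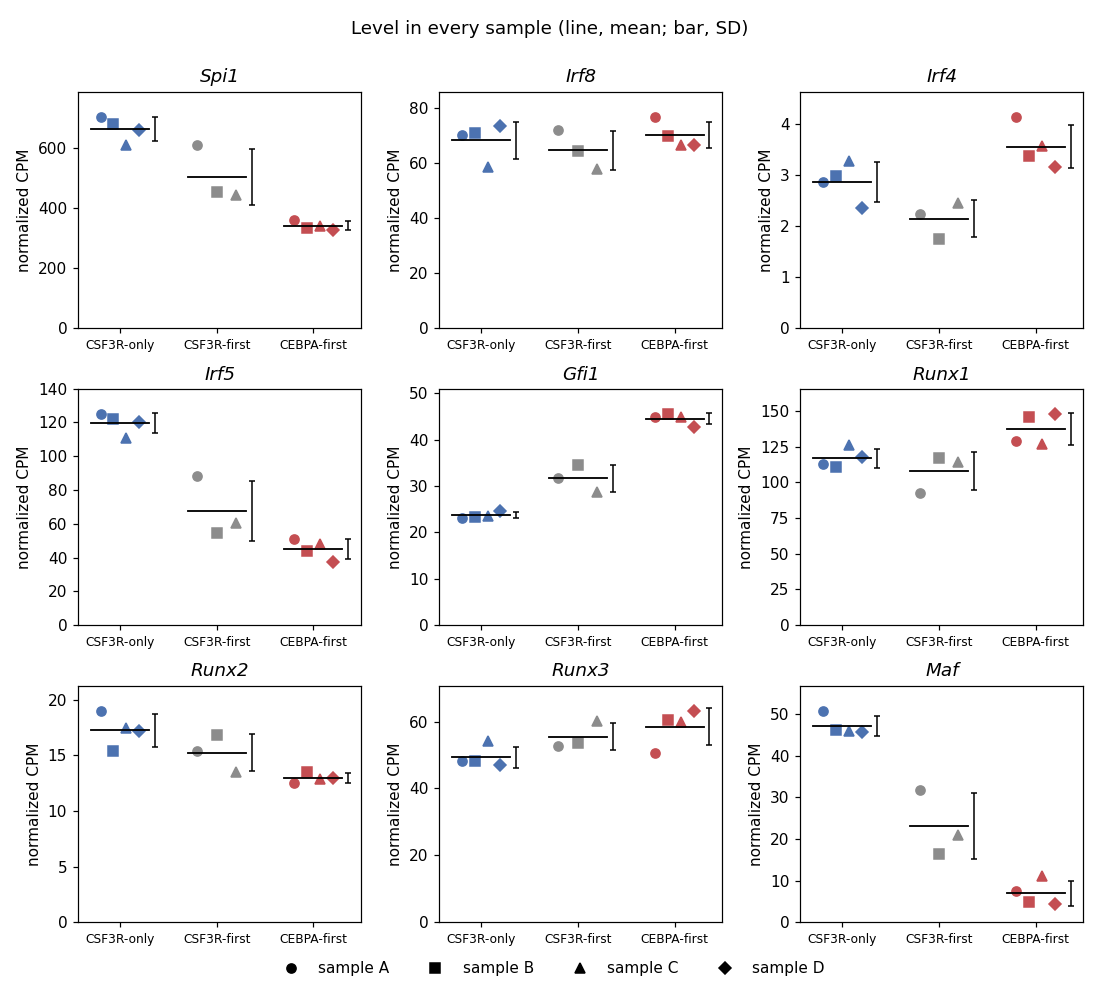
Normalized CPM of each gene in every sample of CSF3R-only, CSF3R-first and CEBPA-first (marker shape, sample A to D; line, group mean; bar, 1 SD). Groups are separate for Irf5, Gfi1 and Maf in all 3 comparisons, and they overlap in all 3 for Irf8 and Runx3. The share of all tested genes with groups as separate was not computed.

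**Figure D3:**
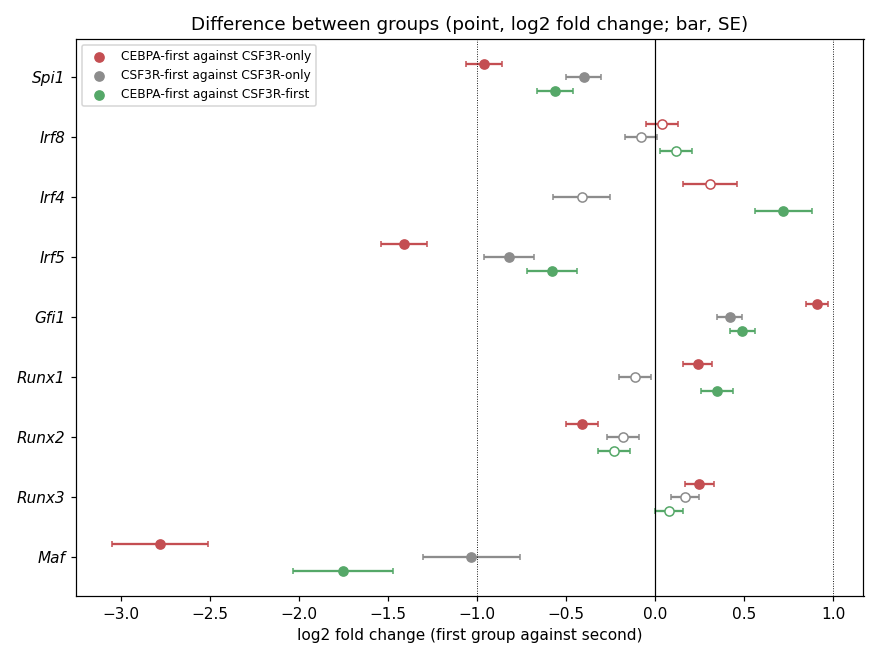
Log2 fold change of each gene with its SE in the 3 comparisons; filled points passed an edgeR adjusted p of 0.05, open points did not, and dotted lines mark 2-fold. Maf lies farthest left, at -2.78 in CEBPA-first against CSF3R-only, and Gfi1 farthest right, at 0.91.

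Spi1 (ENSMUSG00000002111, chr2:91082390-91115756, plus strand) was at 704, 681, 610 and 660 CPM in CSF3R-only A to D, at 610, 455 and 445 CPM in CSF3R-first A to C and at 361, 333, 342 and 328 CPM in CEBPA-first A to D. The CEBPA-first samples were the lowest and lay close together, and CSF3R-first A matched the lowest CSF3R-only sample while B and C did not overlap with that group. Spi1 fell 1.94-fold in CEBPA-first against CSF3R-only (log2 fold change -0.96, SE 0.10, adjusted p = 1.3e-06). It fell less in CSF3R-first (log2 fold change -0.40, SE 0.10, adjusted p = 0.0081), or by 0.56 on the log2 scale without CSF3R-first A, and CEBPA-first lay below CSF3R-first (-0.56, SE 0.10, adjusted p = 0.00081).

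Genes listed as targets of PU.1 were lower almost throughout. In CEBPA-first against CSF3R-only, 15 of 16 fell and 0 rose, 13 of them past 2-fold (all tested genes, 36.6% lower and 19.0% past 2-fold), with a median log2 fold change of -1.95 where that of all tested genes was 0.00, and Btk, a kinase of B cell and myeloid signalling, did not pass (-0.07, adjusted p = 0.31). Il1b, encoding the cytokine interleukin 1β, dropped from 195 ± 24.8 CPM to 6.58 ± 1.0 (log2 fold change -4.89), with 79.5 ± 35.6 CPM in CSF3R-first. Lyz2, the lysozyme of neutrophils and macrophages, was at 17215 ± 2400, 8129 ± 3356 and 2316 ± 463 CPM (-2.89). Itgam, the CD11b integrin chain, changed by -2.86, but 73.8% of its transcript has a near-identical stretch in the overlapping model Gm49368, so its counts are uncertain. Csf1r, the receptor for macrophage colony-stimulating factor, stood at 1126 ± 161, 590 ± 224 and 223 ± 37.2 CPM (-2.34), and Cybb, part of the phagocyte oxidase, changed by -2.51. The same list had 15 of 16 lower in CSF3R-first against CSF3R-only (median -0.77, 4 past 2-fold; all tested genes, 21.1% and 4.53%) and 15 of 16 lower in CEBPA-first against CSF3R-first (median -1.21, 10 past 2-fold; all tested genes, 24.3% and 10.3%). Many of these targets are markers of maturing myeloid cells, whose marker lists moved the same way.

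Other ETS factors split evenly in CEBPA-first against CSF3R-only, with 5 of 11 higher and 5 lower, beside 35.4% and 36.6% of all tested genes. The closest relatives of PU.1 were rare and lower: Spic, a factor of red pulp macrophages, went from 1.54 ± 0.446 CPM to 0.115 ± 0.0156 (log2 fold change -3.74, adjusted p = 1.7e-06), and Spib, a factor of B cells and plasmacytoid dendritic cells, from 0.388 ± 0.162 to 0.0736 ± 0.0302 CPM (-2.36, adjusted p = 0.00016), the latter resting on 3 to 27 counts per sample. Ets2 fell from 54.4 ± 4.93 to 16.1 ± 1.26 CPM (-1.76). In CSF3R-first against CSF3R-only, 4 of 11 ETS genes fell and 0 rose (21.1% and 21.6% of all tested genes), 7 being called in all without CSF3R-first A. Among partners of PU.1 and IRF proteins, Jun, the AP-1 subunit that cooperates with PU.1, fell from 198 to 46.9 CPM (-2.08, adjusted p = 4.7e-07), while Tcf3, Etv6 and Cebpa rose and Batf and Batf3 did not pass. Counts on mouse Cebpa may include reads of the transduced human gene, which was not tested.

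The 3 interferon regulatory factors took 3 different courses. Irf8 (chr8:120736358-120756694, plus strand) was at 70.2, 70.8, 58.4 and 73.2 CPM in CSF3R-only A to D, at 71.9, 64.1 and 57.6 CPM in CSF3R-first and at 76.6, 69.8, 66.6 and 66.6 CPM in CEBPA-first. The groups overlapped in all 3 comparisons, and no comparison passed (log2 fold change 0.04, SE 0.09, adjusted p = 0.72 for CEBPA-first against CSF3R-only; -0.08, adjusted p = 0.52 for CSF3R-first; 0.12, adjusted p = 0.33 for CEBPA-first against CSF3R-first).

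Irf5 (chr6:29526625-29541871, plus strand), a factor that drives inflammatory cytokine genes in macrophages, was at 125, 122, 111 and 120 CPM in CSF3R-only A to D. It was at 88.0, 54.4 and 60.5 CPM in CSF3R-first A to C and at 50.7, 44.0, 48.1 and 37.6 CPM in CEBPA-first A to D. No group overlapped another, and CSF3R-first A was again the sample nearest CSF3R-only. The fall was 2.65-fold in CEBPA-first (log2 fold change -1.41, SE 0.13, adjusted p = 9e-07) and smaller in CSF3R-first (-0.82, SE 0.14, adjusted p = 0.00089), or -1.06 without CSF3R-first A. CEBPA-first was below CSF3R-first (-0.58, SE 0.14, adjusted p = 0.0048), by 0.35 on the log2 scale (adjusted p = 0.018) without that sample. Tnpo3, a nuclear import gene on the opposite strand, covers 14.1% of Irf5 exon bases and moved the other way (130, 146 and 170 CPM; log2 fold change 0.39), and whether the counting used strand is not given in the sources used here.

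Irf4 (chr13:30749226-30766976, plus strand), a factor of plasma cells and alternatively activated macrophages, was the scarcest. Its levels were 2.85, 2.98, 3.27 and 2.34 CPM in CSF3R-only, 2.23, 1.75 and 2.45 CPM in CSF3R-first and 4.13, 3.36, 3.57 and 3.15 CPM in CEBPA-first. CSF3R-first did not overlap CEBPA-first and partly overlapped CSF3R-only. It was 1.65-fold higher in CEBPA-first than in CSF3R-first (log2 fold change 0.72, SE 0.16, adjusted p = 0.0033), whereas the values against CSF3R-only were 0.31 (adjusted p = 0.073) for CEBPA-first and -0.41 (adjusted p = 0.061) for CSF3R-first. Under other settings these 2 ranged from 0.22 to 0.44 (adjusted p 0.016 to 0.22) and from -0.50 to -0.28 (0.02 to 0.24).

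Of the other interferon regulatory factors, 4 of 6 were lower and 0 higher in each of the 3 comparisons, in which 36.6%, 21.1% and 24.3% of all tested genes were lower. Irf7, which amplifies type I interferon, was at 29.0 ± 3.13, 15.4 ± 3.23 and 9.85 ± 2.24 CPM (-1.56 in CEBPA-first against CSF3R-only, adjusted p = 1.6e-06), and Irf1, induced by interferon γ, at 136 ± 7.28, 108 ± 16.2 and 83.9 ± 6.99 CPM (-0.69, adjusted p = 1.2e-05). Listed targets of IRF8 included 6 of 9 that fell and 2 that rose (Nf1 and Klf4) in CEBPA-first, among them the protease gene Ctss (-1.54, adjusted p = 2.4e-05). Of the listed IRF5 and IRF4 targets, 3 of 5 fell and 1 rose. For both lists the shares over all tested genes were 36.6% lower and 35.4% higher. Tnf went from 47.8 ± 7.47 to 5.41 ± 0.931 CPM (-3.14), Prdm1, the repressor BLIMP1, from 16.5 to 4.53 CPM (-1.87) and Mrc1, the mannose receptor of macrophages, from 56.8 to 19.2 CPM (-1.57), while Il6 rose from 12.6 to 30.8 CPM (1.29, adjusted p = 0.00057). Tlr9 and Blnk, also on the IRF8 list, had -0.75 (adjusted p = 0.0081) and -0.06 (adjusted p = 0.84).

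Gfi1 (chr5:107716657-107726036, minus strand) had the smallest SE of the 9 genes in CEBPA-first against CSF3R-only. It was at 23.1, 23.3, 23.6 and 24.6 CPM in CSF3R-only A to D, at 31.6, 34.6 and 28.7 CPM in CSF3R-first A to C and at 44.8, 45.5, 44.9 and 42.7 CPM in CEBPA-first A to D. The 3 groups were fully separate and ordered, CSF3R-first in between. Gfi1 rose 1.88-fold in CEBPA-first against CSF3R-only (log2 fold change 0.91, SE 0.06, adjusted p = 7.2e-08), rose in CSF3R-first (0.42, SE 0.07, adjusted p = 0.0006) and was higher in CEBPA-first than in CSF3R-first (0.49, SE 0.07, adjusted p = 0.00013). A430072P03Rik, on the opposite strand over 3.2% of its exon bases, was at 0.672 to 1.25 CPM in group means. Gfi1b, a relative of Gfi1 and a repressor of the megakaryocyte and erythroid lineages, had 36.9 ± 8.60, 27.9 ± 10.8 and 17.5 ± 2.39 CPM and fell in CEBPA-first (-1.07, adjusted p = 0.00061). The megakaryocyte and erythroid marker sums were also lower there, and their part in this was not tested.

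Of the partners of GFI1, most of them corepressors, 5 of 6 were higher and 0 lower in CEBPA-first against CSF3R-only (35.4% and 36.6% of all tested genes), with a median log2 fold change of 0.27. One of the 5, Hdac1, has a near-identical stretch in Gm10093 over 70.9% of its transcript, so its counts are uncertain. Genes listed as repressed by GFI1 had 9 of 10 lower and 1 higher, with a median of -1.44, and 7 of the 9 were past 2-fold, beside 36.6% of all tested genes lower and 19.0% past 2-fold. Csf1, the macrophage growth factor, stood at 340, 212 and 62.7 CPM (-2.44, adjusted p = 1.1e-09), and Egr2, a factor that promotes macrophages, at 4.75, 2.67 and 0.852 CPM (-2.48). Hoxa9, which keeps progenitors immature, was the exception and rose from 6.83 ± 1.29 to 13.2 ± 0.863 CPM (0.95, adjusted p = 0.00011). In CSF3R-first against CSF3R-only, 7 of 10 fell and 1 rose (Hoxa9) beside 21.1% and 21.6% of all tested genes, 5 being called in all without CSF3R-first B.

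The ratio of Gfi1 to Irf8 within a sample, which needs no scaling between samples, moved with Gfi1. Markers of both branches fell in CEBPA-first against CSF3R-only, where 36.6% of all tested genes were lower. Those of maturing neutrophils had 8 of 8 lower (median log2 fold change -5.07), and those of monocytes and macrophages 7 of 8 lower and 1 higher (median -1.87). The ratio therefore describes these genes and not a balance of the neutrophil and the monocyte branch. On the log2 scale it was -1.60, -1.60, -1.30 and -1.57 in CSF3R-only A to D, -1.18, -0.89 and -1.0 in CSF3R-first, and -0.77, -0.62, -0.57 and -0.64 in CEBPA-first. Each group lay apart from the others. CEBPA-first exceeded CSF3R-only by 0.869 (two-sided exact permutation p = 0.0286, the smallest these group sizes allow; adjusted over 6 such tests, 0.0571), CSF3R-first exceeded CSF3R-only by 0.493 (exact p = 0.0571, adjusted 0.0686) and CEBPA-first exceeded CSF3R-first by 0.376 (exact p = 0.0286, adjusted 0.0571). None of the 6 tests passed after adjustment.

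**Figure D4:**
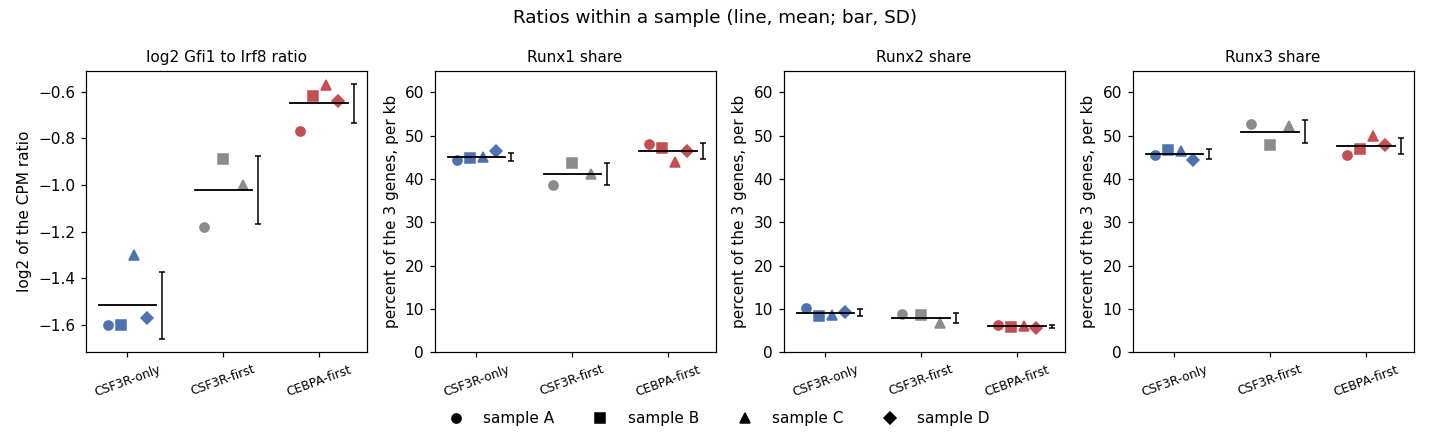
Log2 ratio of Gfi1 to Irf8 CPM, and the share of Runx1, Runx2 and Runx3 in their summed CPM per kb, in every sample (marker shape, sample A to D; line, group mean; bar, 1 SD). The ratio lies between -1.60 and -1.30 in CSF3R-only and between -0.77 and -0.57 in CEBPA-first, while the mean Runx1 share is 45.1%, 41.1% and 46.5% over the 3 groups.

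RUNX genes changed by at most 1.33-fold in these comparisons. Runx1 (chr16:92601466-92826149, minus strand) was at 113, 111, 126 and 118 CPM in CSF3R-only, 92.8, 117 and 114 CPM in CSF3R-first and 129, 146, 127 and 148 CPM in CEBPA-first. CEBPA-first was just above both other groups, which overlapped each other. Runx1 rose in CEBPA-first against CSF3R-only (log2 fold change 0.24, SE 0.08, adjusted p = 0.021) and was higher than in CSF3R-first (0.35, adjusted p = 0.0068), and CSF3R-first against CSF3R-only did not pass (-0.11, adjusted p = 0.34). The first of these calls was lost without CSF3R-only A (adjusted p = 0.053), CSF3R-only B (0.06), CEBPA-first B (0.061) or CEBPA-first D (0.059), at log2 fold changes of 0.20 to 0.22. Gm26626, on the opposite strand over 0.9% of its exon bases, was at 0.112 to 0.430 CPM in group means.

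Runx2 (chr17:44495987-44814797, minus strand), best known as the master factor of bone, was at 19.0, 15.4, 17.5 and 17.2 CPM in CSF3R-only, 15.4, 16.8 and 13.5 CPM in CSF3R-first and 12.5, 13.5, 12.9 and 13 CPM in CEBPA-first. It fell in CEBPA-first against CSF3R-only without overlap (log2 fold change -0.41, SE 0.09, adjusted p = 0.00072), and the other comparisons gave -0.18 (adjusted p = 0.13) and -0.23 (adjusted p = 0.056; 0.024 to 0.24 under other settings). On the list of osteoblast and stroma markers, 5 of 8 were under 0.1 CPM in all samples, Col1a1 had 0.841, 0.748 and 0.387 CPM, and Col1a2 rose from 0.167 to 3.43 CPM in CEBPA-first. Their part in the Runx2 level was not tested. Runx2 has near-identical stretches in other models over 9.75% of its longest transcript, among them the antisense Runx2os1 at 0.343 to 0.417 CPM.

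Runx3 (chr4:135120652-135177990, plus strand), a factor of lymphocytes that is also expressed in myeloid cells, was at 48.2, 48.1, 54.1 and 47.0 CPM in CSF3R-only, 52.7, 53.7 and 60.2 CPM in CSF3R-first and 50.6, 60.4, 59.9 and 63.2 CPM in CEBPA-first. The groups overlapped in all 3 comparisons. Runx3 rose in CEBPA-first against CSF3R-only (log2 fold change 0.25, SE 0.08, adjusted p = 0.012) and did not pass in CSF3R-first (0.17, adjusted p = 0.12) or between the groups with both oncogenes (0.08, adjusted p = 0.48). A stretch of 2.65% of its transcript is near-identical to part of Rab8b.

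Within the family, Runx1 and Runx3 made up most of the summed CPM per kb. The Runx1 share was 44.3%, 44.8%, 45.0% and 46.4% in CSF3R-only, 38.6%, 43.6% and 41.1% in CSF3R-first and 48.2%, 47.2%, 44.0% and 46.5% in CEBPA-first. The CSF3R-first samples were the lowest. Their mean differed from CSF3R-only by -4.0 percentage points (exact permutation p = 0.0286, adjusted 0.0571), CEBPA-first exceeded CSF3R-first by 5.37 points (exact p = 0.0571, adjusted 0.0686) and CEBPA-first differed from CSF3R-only by 1.37 points (exact p = 0.257). Mean Runx3 shares were 45.8%, 50.9% and 47.5%, and mean Runx2 shares 9.1%, 7.95% and 6.0%. Cbfb, encoding the common subunit, rose from 164 ± 5.43 to 202 ± 7.76 CPM in CEBPA-first (0.30, adjusted p = 0.00033), and Hipk2, a kinase that modifies RUNX1, fell from 82.6 ± 7.28 to 23.5 ± 1.92 CPM (-1.82, adjusted p = 5.7e-09). Of 6 tested genes listed as RUNX targets, 4 fell and 2 rose, the latter share being near the 35.4% of all tested genes that were higher (36.6% lower). Spp1, osteopontin, stood at 4206, 1975 and 356 CPM (-3.56) and the integrin Itgal at 323, 176 and 81.4 CPM (-1.99), while the granule genes Elane (1.27) and Mpo (0.88) rose.

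Maf (chr8:115682942-115707794, minus strand) changed most. It was at 50.8, 46.2, 46.1 and 45.7 CPM in CSF3R-only A to D, at 31.9, 16.5 and 21 CPM in CSF3R-first A to C and at 7.53, 4.86, 11 and 4.32 CPM in CEBPA-first A to D. The 3 groups were separate, and CSF3R-first A was the highest of its group. Maf fell 6.87-fold in CEBPA-first against CSF3R-only (log2 fold change -2.78, SE 0.27, adjusted p = 1e-06) and lay below CSF3R-first (-1.75, SE 0.28, adjusted p = 0.00031). In CSF3R-first against CSF3R-only the log2 fold change was -1.03 (SE 0.27, adjusted p = 0.0091), at the edge of the 2-fold rule. It ranged from -1.33 (without CSF3R-first A) to -0.84 over other settings and was under 2-fold without CSF3R-only A, CSF3R-first B or CSF3R-first C. Gm15655, which is near-identical to 6.32% of its transcript on the opposite strand, was at 0 in group means.

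Of the 4 family members listed beside Maf, 3 fell and 0 rose in CEBPA-first against CSF3R-only, where 36.6% of all tested genes were lower and 35.4% higher. The complement genes C1qa, C1qb and C1qc, which MAF factors activate in macrophages, went from 8.96, 77.3 and 37.4 CPM in CSF3R-only to 1.75, 18.3 and 8.19 CPM in CEBPA-first (-2.37, -2.08 and -2.20). Of the 6 listed MAF targets 4 fell, including Il4, and 2 rose, Il10 (1.10, adjusted p = 0.00076) and the scavenger receptor Cd163, which was scarce at 0.314 ± 0.0640 and 1.10 ± 0.238 CPM (1.80, adjusted p = 2.6e-05). The 2 of 6 that rose are near the 35.4% of all tested genes. In CSF3R-first against CSF3R-only 3 of 6 fell (21.1% of all tested genes), but 0 or 1 did so without CSF3R-only B, CSF3R-first B or CSF3R-first C. The summed monocyte and macrophage markers were lower in the same order of groups, with Ly6c2 going the other way (234, 251 and 291 CPM).

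**Figure D5:**
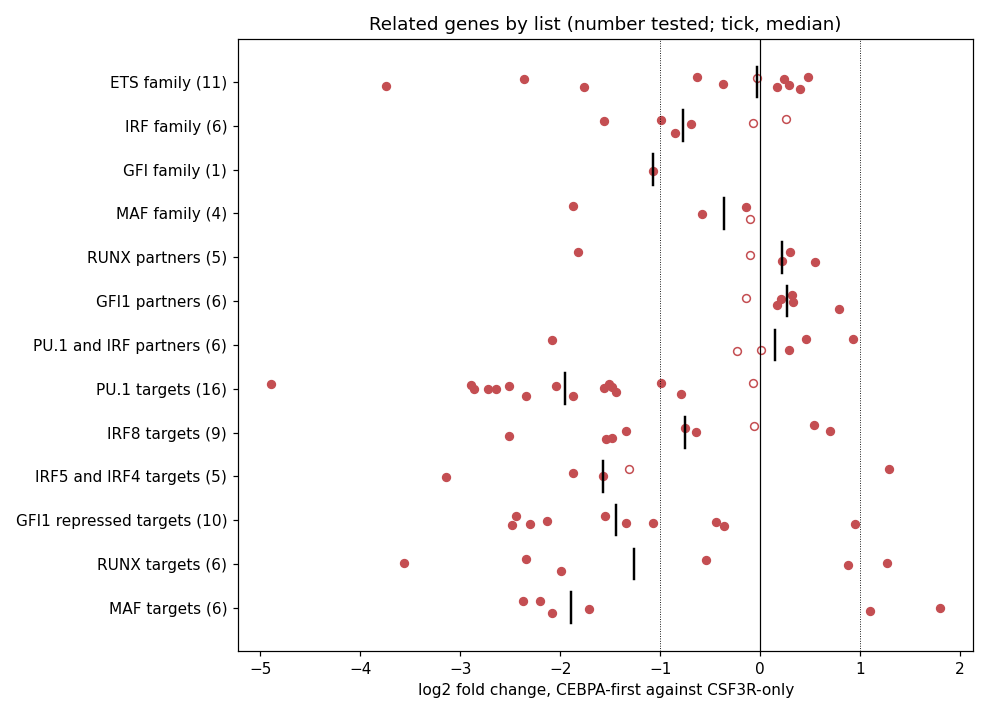
Log2 fold change of the tested genes on each list of related genes in CEBPA-first against CSF3R-only; filled points passed an edgeR adjusted p of 0.05, ticks mark list medians and dotted lines 2-fold. The PU.1 targets lie to the left with a median of -1.95, and the GFI1 partners lie close to 0 with a median of 0.27.

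With each of the 92 related genes counted once, 86 were tested, and 23 were higher and 52 lower in CEBPA-first against CSF3R-only, beside 35.4% and 36.6% of all tested genes. In CSF3R-first against CSF3R-only these counts were 7 and 44 (all tested genes, 21.6% and 21.1%), and in CEBPA-first against CSF3R-first 18 and 45 (all tested genes, 24.0% and 24.3%). The targets were listed from general knowledge, mostly of mature cells, and their direction is not evidence on the activity of a factor.

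The CSF3R-first mean lay between those of the other groups for the 4 genes that passed in all 3 comparisons. How many of all tested genes passed in all 3 or lay in this order was not counted, so neither can be called particular to these genes. Set on a log2 scale from 0 at the CSF3R-only mean to 1 at the CEBPA-first mean, samples A, B and C were at 0.124, 0.566 and 0.599 for Spi1, 0.312, 0.802 and 0.694 for Irf5, 0.459, 0.603 and 0.304 for Gfi1 and 0.197, 0.528 and 0.407 for Maf. Sample A was nearest CSF3R-only for Spi1, Irf5 and Maf, and sample C for Gfi1. The group means of 0.430 ± 0.265, 0.603 ± 0.258, 0.455 ± 0.149 and 0.377 ± 0.168 (SD, n = 3) overlapped, so no order among the 4 genes could be told at this spread. The CSF3R-first mean was also between the others for Runx2 and Runx3, at 0.451 ± 0.393 and 0.696 ± 0.428, but it lay outside them for Irf4 (-1.33 ± 0.789), Runx1 (-0.509 ± 0.787) and Irf8 (-2.02 ± 4.05), whose end groups differed by 0.31, 0.23 and 0.04 on the log2 scale.

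The genes with the most similar profile over the 11 samples were found by the root mean square difference of centred log2 CPM among 9039 genes (9040 for Irf4). Maf was nearest to Trem2 (0.113), a receptor of macrophages and microglia, which had 69.4, 35.3 and 10.5 CPM in the 3 groups, then to Marcks (0.145) and Ecm1 (0.147). Genes near Irf5 included Crebrf (0.0759) and Hbp1 (0.0805). Spi1 was nearest to Degs1 (0.0384), Bin3 (0.0386) and Adipor1 (0.043), and Gfi1 to Hspa13 (0.0523), Fkbp1a and Sirt3. The nearest genes of Runx1, Runx2 and Runx3 were Usp24 (0.0625), Kmt2c (0.072) and Arid1a (0.0594), and those of Irf8 and Irf4 were Akirin2 (0.0621) and Zfyve21 (0.174). These are descriptions over samples that share group and depth, and with groups this distinct many genes have similar profiles.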

How the data were processed

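The authors sorted lineage-negative cells carrying both vectors, made libraries with the SMARTer universal low input kit, used Trimmomatic for trimming and STAR for alignment, and deposited raw whole-number counts per gene; the submitters' processing notes name mm10, STAR and DESeq2. The counting tool, annotation and use of strand are not given in the sources used here. Of 51912 genes, 23409 had no count, and 279 identifiers without a symbol took up 0.0279% of the counts or less in each sample. A count of 0 allows up to 3 counts, or 0.0384 to 0.0648 CPM, counting error only.

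After filterByExpr (15703 genes left) and TMM scaling, all 3 groups entered one quasi-likelihood fit in edgeR 4.0.16 (R 4.3.3) with no covariate and Benjamini-Hochberg adjustment over all tested genes; the SE is the log2 fold change over the square root of F. The 2-fold rule adds an absolute log2 fold change of at least 1. Log2 CPM used a prior count of 2. Ratios and shares were compared by two-sided exact permutation. Alternatives were DESeq2 1.42.0, other scalings, filters, the 2 groups alone, a replicate block and each sample left out; the position of CSF3R-first was added after values were seen. Positions are GENCODE M21 (GRCm38); near-identical stretches (at least 100 bases, 97% identity) came from BLAST 2.17.0, figures from matplotlib 3.10.9.

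The 9 genes, all lists and the motif letters were chosen with earlier results of these data known. Named were the 9 genes, up to 3 genes of a list past the 2-fold rule with the largest change in CEBPA-first against CSF3R-only, a few relatives (Cbfb, Gfi1b, Spib, Irf1, Irf7) and, for each of the 9, the 3 nearest genes with a mean log2 CPM of at least 3; Btk, Nf1, Klf4, Tlr9, Blnk, Il6, Hoxa9, Elane, Mpo, Il4, Il10, Cd163, Tcf3, Etv6, Cebpa, Batf, Batf3 and Tnpo3 were named after their values were seen. A few genes that this rule takes are not reported here. On simulated counts for the 15703 genes in CEBPA-first against CSF3R-only, 89 of 100 genes changed 2-fold and 100 of 100 changed 4-fold were recovered, with 15 unchanged genes called.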

Additional observations from a re-analysis of the deposited data

Results flagged for a closer look

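In groups of 4 samples, a sample was taken as standing apart when its gap to the next, divided by the range, exceeded Dixon's critical value for 4 samples. Of 78 groups tested 5 did so, where chance gives about 3.9 (5%). Runx3 was at 54.1 CPM in CSF3R-only C against 47.0 to 48.2 in the other 3 samples, and Maf at 50.8 CPM in CSF3R-only A against 45.7 to 46.2. Cbfb was at 172 CPM in CSF3R-only B against 161 to 162, and Il1b at 5.08 CPM in CEBPA-first B against 7.0 to 7.2. The log2 ratio of Gfi1 to Irf8 was -1.30 in CSF3R-only C against -1.60 to -1.57, the sample with the lowest Irf8 of its group.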

How the results depend on the processing

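Across the fits of the 9 genes, 492 values kept direction and side of the threshold, 12 gained a call, 4 lost one and 5 changed sign. All 5 were of Irf8, which never passed with the main settings: for CEBPA-first against CSF3R-only -0.0019 with at least 10 counts in every sample and -0.03 to 0.07 with 1 sample left out, and for CSF3R-first against CSF3R-only 0.0022 with library size alone and -0.16 to 0.02 with 1 sample left out. The 4 lost calls were those of Runx1 given above. Library size alone moved the median of all genes by 0.13 in CEBPA-first against CSF3R-only, and Irf8 then had 0.17 (adjusted p = 0.048) and Gfi1 1.04, past 2-fold. The count past the 2-fold rule in CSF3R-first against CSF3R-only (1, Maf) was 0 with library size alone or with no filter on low counts, and 0 to 2 with 1 sample left out. With at least 10 counts in every sample, fewer genes were tested, and 566 and 1219 of all genes passed that rule in CSF3R-first against CSF3R-only and CEBPA-first against CSF3R-first, where the main counts were 1045 and 2016. For the Gfi1 to Irf8 ratio, CEBPA-first against CSF3R-first was 0.297 to 0.444 with 1 sample left out, where smaller groups allow no lower p than 0.0667. The Runx1 share in CSF3R-first against CSF3R-only was -5.24 to -2.76 in the same way, and undivided by length its difference in CEBPA-first against CSF3R-first was 5.47 (exact permutation p = 0.0286). The sample letters are not stated to pair samples: same-letter correlations were 0.0869 to 0.314, 0.0629 to 0.362 and -0.107 to 0.287 in the 3 pairs of groups, and 3 of 6, 5 of 8 and 4 of 6 samples were closest to their own letter. With a replicate block the ratio differences were 0.869 (exact p = 0.125) and 0.372 (0.25) for CEBPA-first against CSF3R-only and CSF3R-first. The Runx1 share difference in CSF3R-first against CSF3R-only was -3.58 (0.25). Each of these p is the lowest that so few letter pairs allow, so none of these tests could pass. In the edgeR fit with this block, Irf4 passed against CSF3R-only in CEBPA-first (0.32, adjusted p = 0.043) and CSF3R-first (-0.49, adjusted p = 0.02). Calls of list genes kept their counts within 1.5 times in 708 cases, with 27 smaller and 6 larger.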
